A study of Mus musculus with 3 samples.

Results

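The 32 genes described here encode the glucose carriers, the glycolytic enzymes and their isoforms, the enzymes that set the flow into glycolysis and into pyruvate oxidation, and the lactate carriers. They were taken by symbol from a table of 56691 gene rows and occupied 33 of them, because Aldoa is listed under 2 gene identifiers. RNA sequencing had been done on 3 cultures of mouse stomach organoids, epithelial structures grown in Matrigel under proliferative conditions. Of the resulting libraries, Mist1- and Mist1+ came from organoids of Mist1Cre/ERT2;RFPLSL mice and carry the genotype label WT. The third library, labelled Gpx4 KO-Mist1+, came from Gpx4F/F;Mist1Cre/ERT2;RFPLSL mice, a notation for a Cre-deletable Gpx4 gene, which codes for an enzyme that reduces lipid peroxides; it is called the Gpx4 KO-labelled library below. All 3 groups therefore carry the Cre allele driven by Mist1, a transcription factor gene of gastric chief cells, together with a red fluorescent reporter. The mice were about 8 weeks old and each title gives P5. How many mice or founder cells each culture came from, and how Cre was induced, were not given in the sources used here.

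Glycolysis turns glucose into pyruvate in the cytosol. Hexokinases trap the sugar, phosphofructokinase commits it under the control of PFKFB enzymes, and aldolase to pyruvate kinase make up the lower, ATP-yielding steps. Lactate dehydrogenase converts pyruvate to lactate, which leaves through monocarboxylate carriers, while PDK kinases restrain pyruvate dehydrogenase and so limit mitochondrial use of pyruvate. Many of these genes are known targets of hypoxia-inducible factors (HIF) and of MYC; in the gastric gland, chief cells are the enzyme-secreting cells at the base.

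The libraries held 14943918 counts (Mist1-), 16187378 (Mist1+) and 16396693 (Gpx4 KO-labelled), with a count for 19758, 21624 and 21835 genes. Gpx4 itself had 4399, 1998 and 2569 counts, so its whole-gene count was not lower in the Gpx4 KO-labelled library than in Mist1+; a count over the whole gene does not check a deleted part of it. Bhlha15, the gene of Mist1 itself, had 282, 580 and 370 counts and an FPKM of 5.40, 10.3 and 6.46, so it was detected in Mist1- too, and the Gpx4 KO-labelled library lay nearer to Mist1- than to Mist1+. The epithelial markers Epcam, Krt8, Krt18 and Cdh1 were present in all 3 libraries, and no marker of fibroblasts, muscle, leukocytes, endothelium, erythroid cells, neurons or endocrine cells reached 1 FPKM (fragments per kilobase of exon, scaled to the total count). Among gland cell types, the summed FPKM of 4 pit cell markers was 713, 98.0 and 90.4, that of 5 chief cell markers 2018, 3506 and 2641 with Pga5 at 0, and that of 4 neck cell markers 1053, 719 and 1465. Parietal markers summed to 31.9, 41.6 and 48.7, with Atp4b and Slc26a7 at 0. The neck sum in FPKM thus had the same order over the libraries as most of the genes below. In raw counts, not scaled to the library totals above, the neck markers summed to 14245, 15179 and 25475. Mist1- and Mist1+ lay close there, so how far Mist1+ lay below Mist1- depended on the measure. The pit sum was high in Mist1- alone. The part of neck and pit cells in the results was not tested. In bulk RNA, fewer cells of a type and less RNA per cell cannot be told apart. Each group has 1 library, so there is no spread between samples and no test was possible. The 95% intervals given below cover counting error only, and every difference is one between 3 libraries.

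Together the 32 genes took 1.05% of all counts in Mist1-, 0.559% in Mist1+ and 1.49% in the Gpx4 KO-labelled library. Summed over the genes, this is 156484, 90555 and 244524 counts. The Mist1+ library was thus the lowest and the Gpx4 KO-labelled library the highest, each outside the counting error of the others. Of the 32 genes, 26 reached an FPKM of 1 in at least 1 library, and these 26 reached it in all 3. The 6 others were Slc2a3, Hkdc1, Pfkfb4, Eno2, Pdk4 and Fbp1, of which Pfkfb4 came nearest with an FPKM of 0.99. Among the 26, the order Mist1+ below Mist1- below the Gpx4 KO-labelled library was found for 16 genes (61.5%), against 8.02% of the 13351 genes that passed the same filter. The Gpx4 KO-labelled library was the highest for 20 of 26 (76.9%, against 30.5% of all genes tested), and Mist1+ the lowest for 18 (69.2%, against 18.2%). Outside this order, Tpi1 and Ldha were highest in Mist1-, Bpgm and Ldhb were lowest in the Gpx4 KO-labelled library, and Hk1, Hk2, Eno3, Pdk2, Pfkfb2 and Pdk3 were lowest in Mist1-. The places of Pfkl, Tpi1, Eno1, Ldha and Pdk3 relative to Mist1- in the Gpx4 KO-labelled library turned with the scaling or the length trend, as did those of Hk1, Hk2, Pfkm, Pfkfb3, Eno3, Ldhb, Slc16a1, Pdk1 and Pdk3 between Mist1+ and Mist1-, and those of Pfkfb2 and Pdk3 between the 2 Mist1+ libraries; none of these differences reached 2-fold.

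**Figure D1:**
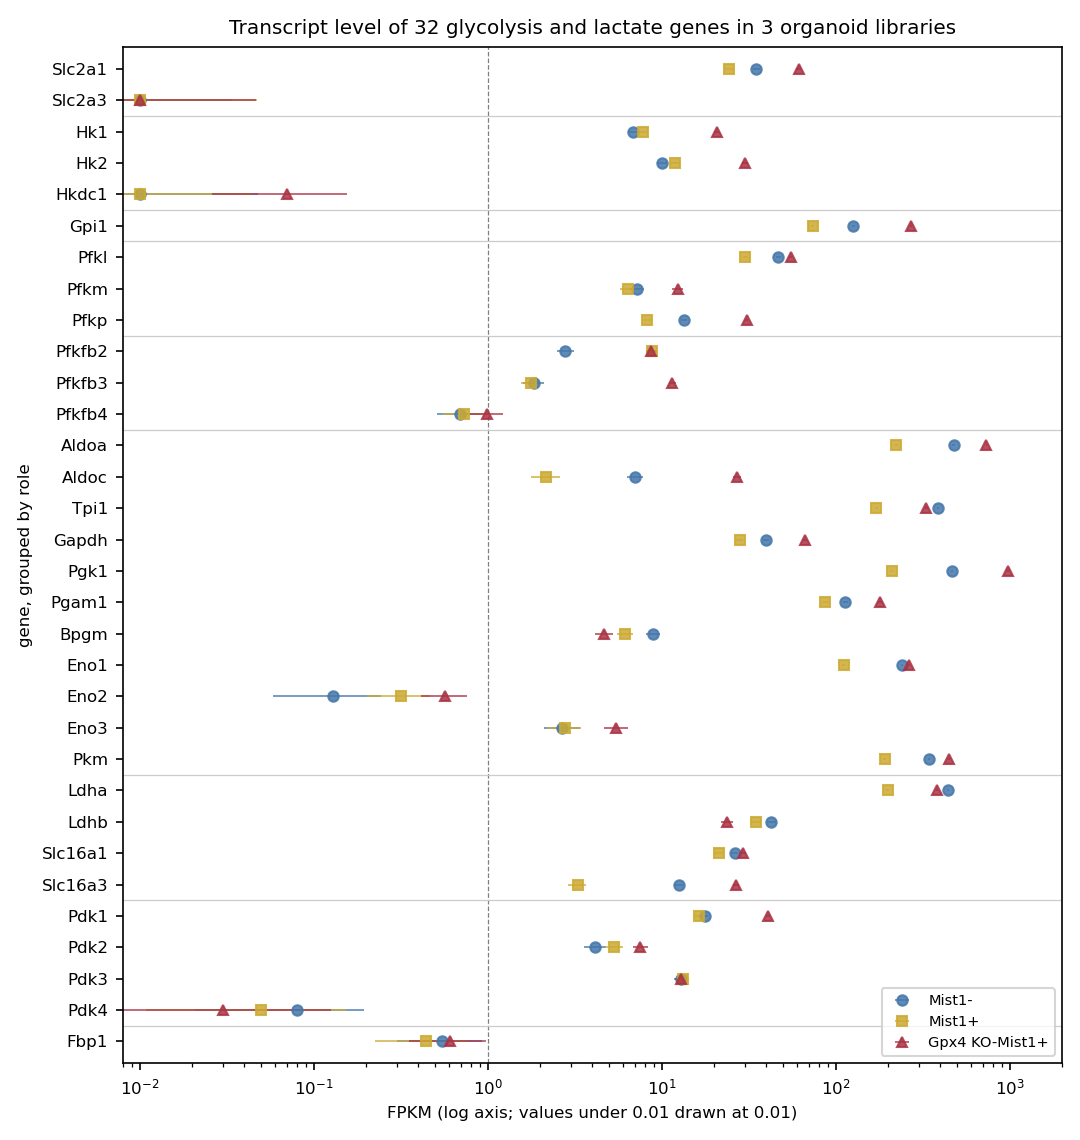
FPKM (horizontal log axis) of the 32 genes, grouped by role, in Mist1- (blue circles), Mist1+ (yellow squares) and the Gpx4 KO-labelled library (red triangles), 1 library each. Bars are 95% intervals for counting error and the dashed line marks 1 FPKM; red triangles lie furthest right for 20 of the 26 genes that passed the filter.

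A gene was called at least 2-fold higher or lower on the log2 ratio of FPKM plus 1. Mist1+ against Mist1- compares organoids by the Mist1 state of their source. At this limit 7 of 26 (26.9%) were lower in Mist1+, against 5.73% of all 13351 genes tested, namely Aldoa, Aldoc, Tpi1, Pgk1, Eno1, Ldha and Slc16a3. Only Pfkfb2 was at least 2-fold higher (3.85% of the 26), against 7.87% of all genes. The ratio was below 0 for 20 of the 26, against 5411 of all 13351 genes tested. The median was -0.48 beside 0.15 over all genes tested, and the 26 ranged from -1.66 to 1.38. The counting interval left out equality for 22 of the 26. It did so for 29 of the 41 further pathway genes described below, and the share over all genes tested was not computed. When FPKM were rescaled to a common sum (TPM), the median of all genes moved to 0.47 and that of the 26 to -0.18, and 2 of the 26, Aldoc and Slc16a3, were 2-fold lower (3.82% of all genes) and Pfkfb2 2-fold higher (23.2% of all genes). Pfkfb2 was under 2-fold with the length trend removed (log2 0.90) and with a pseudocount of 5 (0.83). Relative to all genes the distance of the medians was -0.62 on FPKM and -0.65 on TPM.

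This comparison also ran with transcript length. Over the 13351 genes, exonic length and the log2 ratio of Mist1+ to Mist1- had a Spearman rho of 0.49 across genes, which are not independent replicates, and the corresponding value was -0.02 for the Gpx4 KO-labelled library against Mist1+ and 0.39 against Mist1-. The 26 genes had a median exonic length of 3861 bases beside 3766 for all genes. Measured from the length trend, the median of the 26 was -0.58 in Mist1+ against Mist1- and 21 of 26 lay below the trend. With the trend removed, 10 of 26 genes were 2-fold lower (3.87% of all genes), without Pgk1, and 0 were 2-fold higher (4.37%). Against Mist1+, the median for the Gpx4 KO-labelled library measured in this way was 1.34, with 24 of 26 above the trend.

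In the Gpx4 KO-labelled library against Mist1+, 15 of 26 genes (57.7%) were at least 2-fold higher, against 4.81% of all genes tested. They were Slc2a1, Hk1, Hk2, Gpi1, Pfkp, Pfkfb3, Aldoa, Aldoc, Gapdh, Pgk1, Pgam1, Eno1, Pkm, Slc16a3 and Pdk1, and thus covered every step from glucose entry to pyruvate kinase except Tpi1. No gene was 2-fold lower, against 2.74% of all genes. The median of the 26 was 1.22 beside -0.09 for all genes, and 22 of 26 were above 0, against 5430 of all 13351 genes tested. Tpi1 and Ldha missed the limit narrowly, with folds of 1.93 and 1.92.

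In the Gpx4 KO-labelled library against Mist1-, 10 of 26 genes (38.5%) were at least 2-fold higher, against 11.6% of all genes tested, namely Hk1, Hk2, Gpi1, Pfkp, Pfkfb2, Pfkfb3, Aldoc, Pgk1, Slc16a3 and Pdk1. None was 2-fold lower, against 8.56%. The median was 0.73 beside 0.09 for all genes. On TPM 15 of 26 were higher, against 24.1% of all genes. With the length trend removed 6 were higher, against 7.87%. The calls of Hk1, Gpi1, Pfkp, Pfkfb2, Slc16a3 and Pdk1 ended there, while Pgam1 and Eno3, not called on FPKM, passed 2-fold. The 3 comparisons share libraries, so a high or low value in 1 library enters 2 of them, and the values of each are given side by side below.

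**Figure D2:**
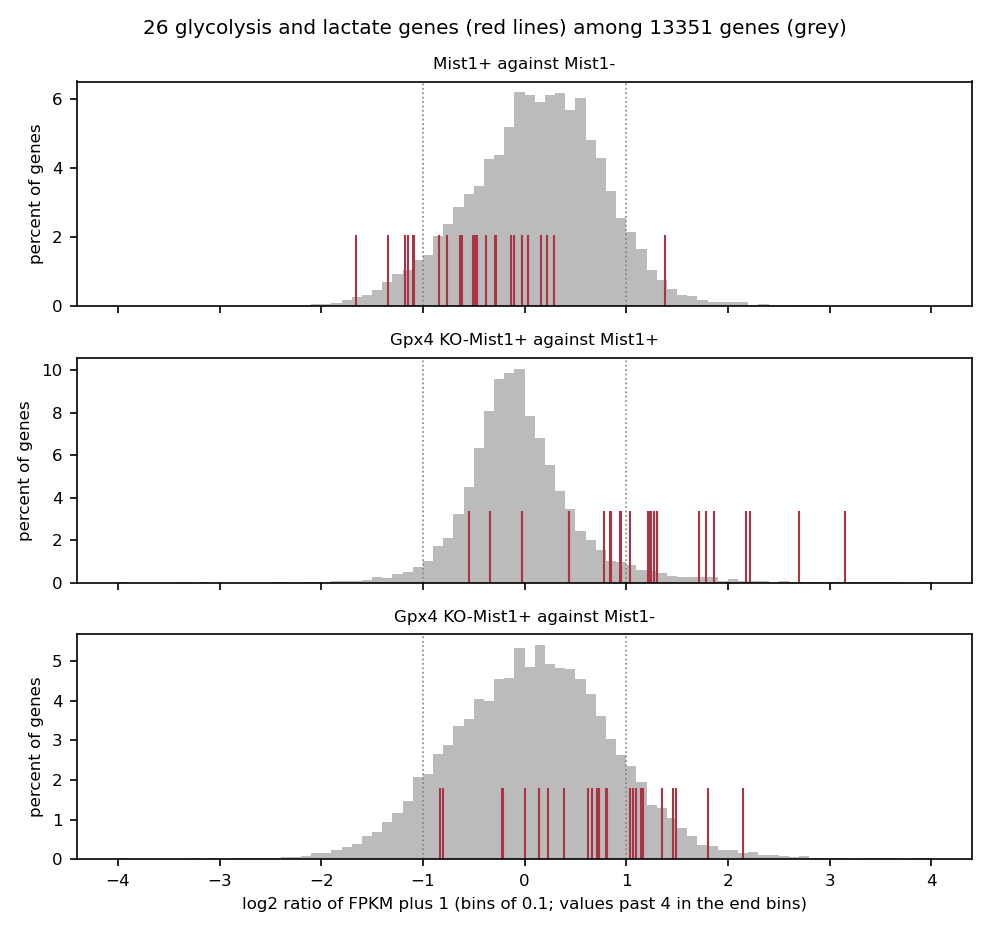
Log2 ratio of FPKM plus 1 (horizontal axis) for all 13351 genes tested (grey, percent of genes per bin) and for the 26 genes (red lines), 1 panel per comparison; dotted lines mark 2-fold. The red lines lie mostly left of the bulk in Mist1+ against Mist1-, where 7 pass the left line, and right of it in the middle panel, where 15 pass the right line.

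**Figure D3:**
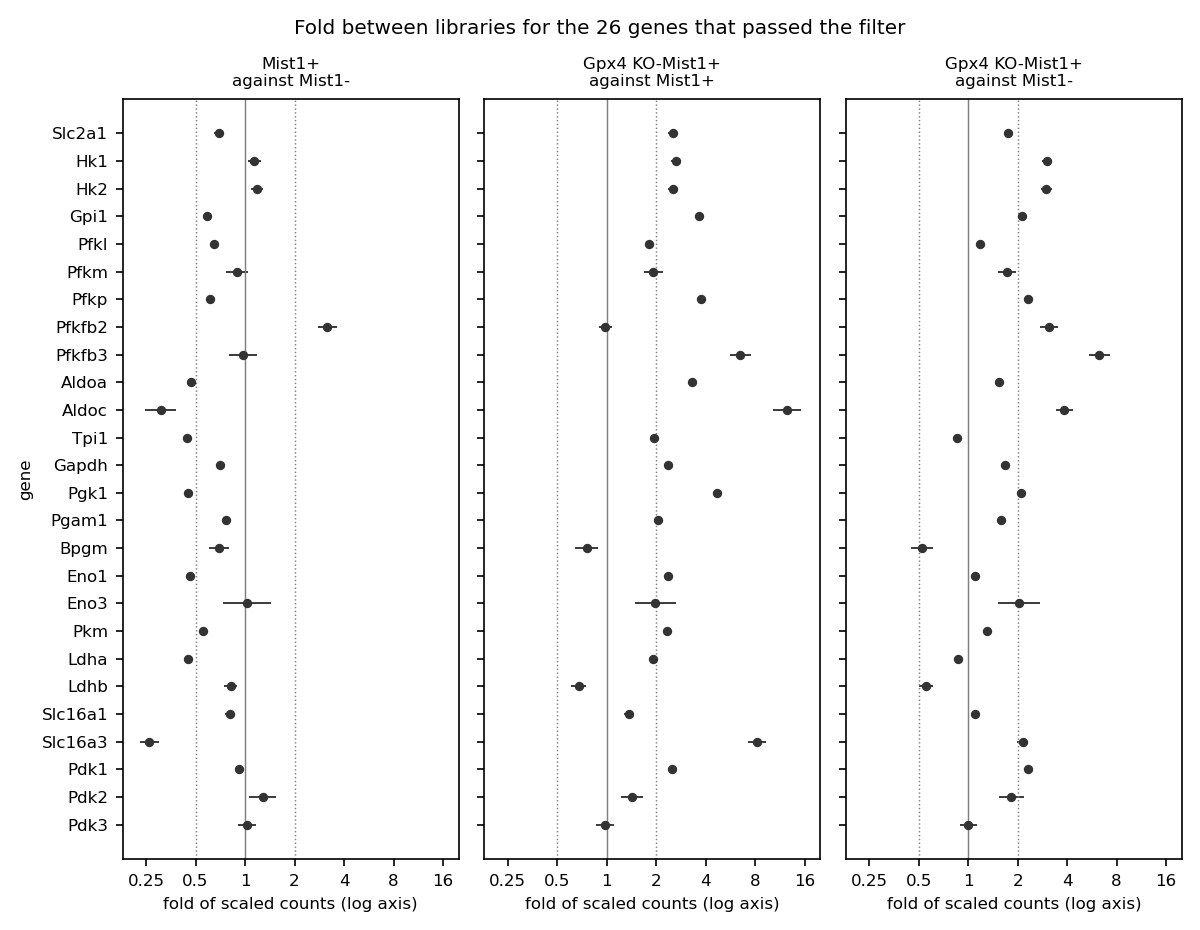
Fold of counts scaled to library totals (horizontal log axis) for the 26 genes in the 3 comparisons, with 95% counting intervals; the solid line is equality and the dotted lines 2-fold. In the middle panel Aldoc (12.5-fold) and Slc16a3 (8.18-fold) lie furthest right, and Bpgm and Ldhb lie left of equality.

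The upstream sequences of 7 of these genes are printed because they let the reader compare the genes that differed most between the Mist1+ library and the Gpx4 KO-labelled library with those that went the other way. From the genes that passed the filter and have a single listed start site, the 4 with the largest fold and the 2 with the smallest were taken, plus the first listed window of Ldha, the lactate-forming enzyme; the choice was made after the values were seen. Sequences are from RefSeq on GRCm38.p6, 250 bases before the start site, 5′ to 3′ on the strand of the gene. Capitals mark ACGTG and GCGTG, the core letters known for HIF binding, on either strand (CACGT and CACGC when read on the gene's strand); CACGTG is counted as 2 overlapping matches.
Slc16a3 (chr11:120948817-120949066, plus strand): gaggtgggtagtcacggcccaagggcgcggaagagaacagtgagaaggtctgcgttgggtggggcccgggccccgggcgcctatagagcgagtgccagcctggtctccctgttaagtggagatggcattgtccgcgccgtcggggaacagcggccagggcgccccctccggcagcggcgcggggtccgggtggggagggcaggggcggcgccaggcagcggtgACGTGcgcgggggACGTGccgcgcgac
Pgk1 (chrX:106186850-106187099, plus strand): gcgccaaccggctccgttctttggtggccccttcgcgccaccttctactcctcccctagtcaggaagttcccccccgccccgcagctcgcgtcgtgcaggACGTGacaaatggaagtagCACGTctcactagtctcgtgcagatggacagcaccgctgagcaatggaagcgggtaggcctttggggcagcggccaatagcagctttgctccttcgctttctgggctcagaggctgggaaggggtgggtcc
Pfkp (chr13:6648772-6649021, minus strand): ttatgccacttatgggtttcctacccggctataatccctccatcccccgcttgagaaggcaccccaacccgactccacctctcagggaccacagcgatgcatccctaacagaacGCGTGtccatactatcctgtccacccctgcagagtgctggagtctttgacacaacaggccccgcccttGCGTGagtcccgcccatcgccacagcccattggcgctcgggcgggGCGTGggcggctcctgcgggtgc
Gpi1 (chr7:34230337-34230586, minus strand): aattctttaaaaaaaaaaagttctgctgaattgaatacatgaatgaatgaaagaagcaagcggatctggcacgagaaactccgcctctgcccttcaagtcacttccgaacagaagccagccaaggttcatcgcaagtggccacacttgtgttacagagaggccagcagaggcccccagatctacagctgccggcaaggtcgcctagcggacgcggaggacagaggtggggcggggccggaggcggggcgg
Ldha (chr7:46845554-46845803, plus strand): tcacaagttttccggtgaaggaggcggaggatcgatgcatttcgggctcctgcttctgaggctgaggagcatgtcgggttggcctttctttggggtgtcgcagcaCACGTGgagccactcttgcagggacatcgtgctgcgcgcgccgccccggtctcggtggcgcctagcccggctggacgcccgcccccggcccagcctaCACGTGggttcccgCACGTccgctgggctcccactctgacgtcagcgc
Ldhb (chr6:142507958-142508207, minus strand): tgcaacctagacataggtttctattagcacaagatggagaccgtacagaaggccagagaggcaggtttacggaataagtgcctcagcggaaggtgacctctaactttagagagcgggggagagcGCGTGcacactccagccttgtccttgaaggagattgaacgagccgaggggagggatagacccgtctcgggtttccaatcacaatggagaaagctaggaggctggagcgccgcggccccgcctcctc
Bpgm (chr6:34476106-34476355, plus strand): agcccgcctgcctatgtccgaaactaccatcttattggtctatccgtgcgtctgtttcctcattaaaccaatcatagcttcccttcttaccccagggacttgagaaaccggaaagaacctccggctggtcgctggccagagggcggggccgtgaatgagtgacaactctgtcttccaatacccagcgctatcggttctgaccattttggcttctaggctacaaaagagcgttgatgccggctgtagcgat
Slc16a3 and Pgk1 have 2 matches each, Pfkp 3, Ldha 5, Ldhb 1, and Gpi1 and Bpgm 0, so the letters are present in 3 of the 4 sequences of genes with the largest folds and in 1 of the 2 with the smallest. Gpi1, without a match, was 3.67-fold higher in the Gpx4 KO-labelled library than in Mist1+.

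A window of 300 bases, with 50 bases after the start site added, was listed for 31 of the 32 genes, 47 windows in all, several of which overlap; Slc2a3 had none listed. Either motif was present in 76.6% of these 47 windows, against 62.7% of the 11736 windows of genes tested and 43.8% of all 32851 windows. ACGTG was in 44.7% of them, against 25.9% and 19.6%, and GCGTG in 55.3%, against 51.0% and 32.4%. Windows of genes tested with 9 to 24 CpG, the middle range of the members' windows, held either motif in 64.4%. Bpgm, Eno2, Fbp1, Gpi1 and Tpi1 had no match in any window. In the deposited pathway annotation, 21 of the 32 genes carry the glycolysis map, against 551 of all 56691 gene rows. The HIF signalling map is carried by 18, against 661 rows. The 32 genes were chosen by pathway role, so these counts are not a separate result. A match is a description of the letters and not of a bound site.

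Glucose enters through facilitative carriers. Slc2a1, which encodes GLUT1, the basal carrier of most cells, had an FPKM of 35.0 in Mist1-, 24.3 in Mist1+ and 61.4 in the Gpx4 KO-labelled library. It was 1.44-fold lower in Mist1+ than in Mist1- (1.34 to 1.54) and 2.53-fold higher in the Gpx4 KO-labelled library than in Mist1+ (2.37 to 2.69). Slc2a3, the high-affinity neuronal GLUT3, had 0, 1 and 1 counts, at or under the 3 counts that a count of 0 allows, so Slc2a1 made up nearly all of the carrier signal of this pair.

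Hexokinases phosphorylate glucose at the entry of the pathway. Hk1, the widely expressed form, had an FPKM of 6.86, 7.81 and 20.7, and Hk2, the inducible form, 10.1, 11.9 and 30.2 in Mist1-, Mist1+ and the Gpx4 KO-labelled library. The Gpx4 KO-labelled library was high and the other 2 close to each other. Hk1 was 2.65-fold (2.47 to 2.85) and Hk2 2.53-fold (2.37 to 2.71) higher there than in Mist1+, and 3.02-fold and 2.99-fold higher than in Mist1-. Between Mist1+ and Mist1- the folds were 1.14 (1.04 to 1.25) and 1.18 (1.08 to 1.29), and for both the sign depended on the scaling or the length trend, with log2 values from -0.39 to 0.49 for Hk1. The make-up of the pair was alike in the 3 libraries: Hk2 held 59.6%, 60.4% and 59.3% of the hexokinase FPKM, and the interval of the change in the Hk1 to Hk2 ratio included 1 in all 3 comparisons (0.849 to 1.09, 0.948 to 1.16 and 0.906 to 1.12). Hkdc1, a hexokinase-like gene, had 0, 0 and 6 counts.

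Gpi1, which isomerises the glucose phosphate, was among the more abundant transcripts, with 12190, 7713 and 28635 counts and an FPKM of 126, 73.9 and 271. It was 1.71-fold lower in Mist1+ than in Mist1- (1.66 to 1.76) and 3.67-fold higher in the Gpx4 KO-labelled library than in Mist1+ (3.57 to 3.76), rank 142 of 13351 genes from the top. Against Mist1- it was 2.14-fold higher (2.10 to 2.19).

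Phosphofructokinase is the committed step. Pfkl, the liver-type subunit, was the most abundant of the 3 subunits in every library, with an FPKM of 46.9, 30.3 and 55.1. Pfkp, the platelet-type subunit, had 13.4, 8.26 and 30.8, and Pfkm, the muscle type, 7.19, 6.44 and 12.4. All 3 were highest in the Gpx4 KO-labelled library, although for Pfkl the direction against Mist1- turned with the processing (log2 from -0.12 to 0.52). The amounts were unequal: against Mist1+, Pfkp was 3.73-fold higher (3.54 to 3.94), Pfkm 1.92-fold (1.69 to 2.20) and Pfkl 1.82-fold (1.74 to 1.90). The share of Pfkp in the family was 19.9% in Mist1-, 18.4% in Mist1+ and 31.4% in the Gpx4 KO-labelled library. Accordingly the Pfkl to Pfkp ratio was 2.05-fold lower there than in Mist1+ (1.92 to 2.20), whereas its change between Mist1+ and Mist1- was 1.05 (0.973 to 1.13). The length trend was not removed from these ratios. With it removed, the log2 ratios of Pfkl and Pfkp in Mist1+ against Mist1- were -1.05 and -1.38, beside -0.61 and -0.64 before.

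PFKFB enzymes make and break a regulatory fructose bisphosphate that activates phosphofructokinase and is not itself an intermediate of glycolysis. Their isoforms differed in pattern. Pfkfb2, the cardiac type, had an FPKM of 2.80 in Mist1-, 8.86 in Mist1+ and 8.71 in the Gpx4 KO-labelled library, low only in Mist1-. Pfkfb3, the inducible form with high kinase activity, had 1.84, 1.78 and 11.6, high only in the Gpx4 KO-labelled library. Pfkfb2 was 3.16-fold higher in Mist1+ than in Mist1- (2.78 to 3.60), a difference that fell short of 2-fold with the length trend removed, with a fold of 0.983 (0.902 to 1.07) between the 2 others. Pfkfb3 was 6.49-fold higher in the Gpx4 KO-labelled library than in Mist1+ (5.62 to 7.51) and 6.28-fold higher than in Mist1- (5.42 to 7.29), while Mist1+ and Mist1- did not differ beyond counting error. The Pfkfb2 to Pfkfb3 ratio was 1.52, 4.97 and 0.754, so that Pfkfb2 led in the libraries labelled WT and Pfkfb3 in the third. This ratio was 6.59-fold lower in the Gpx4 KO-labelled library than in Mist1+ (5.57 to 7.82). Pfkfb4 had 50, 58 and 79 counts. Of the exonic bases of Pfkfb2, 19.5% overlap the neighbours Gm29427 and Yod1, which together had 298, 535 and 570 counts.

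**Figure D4:**
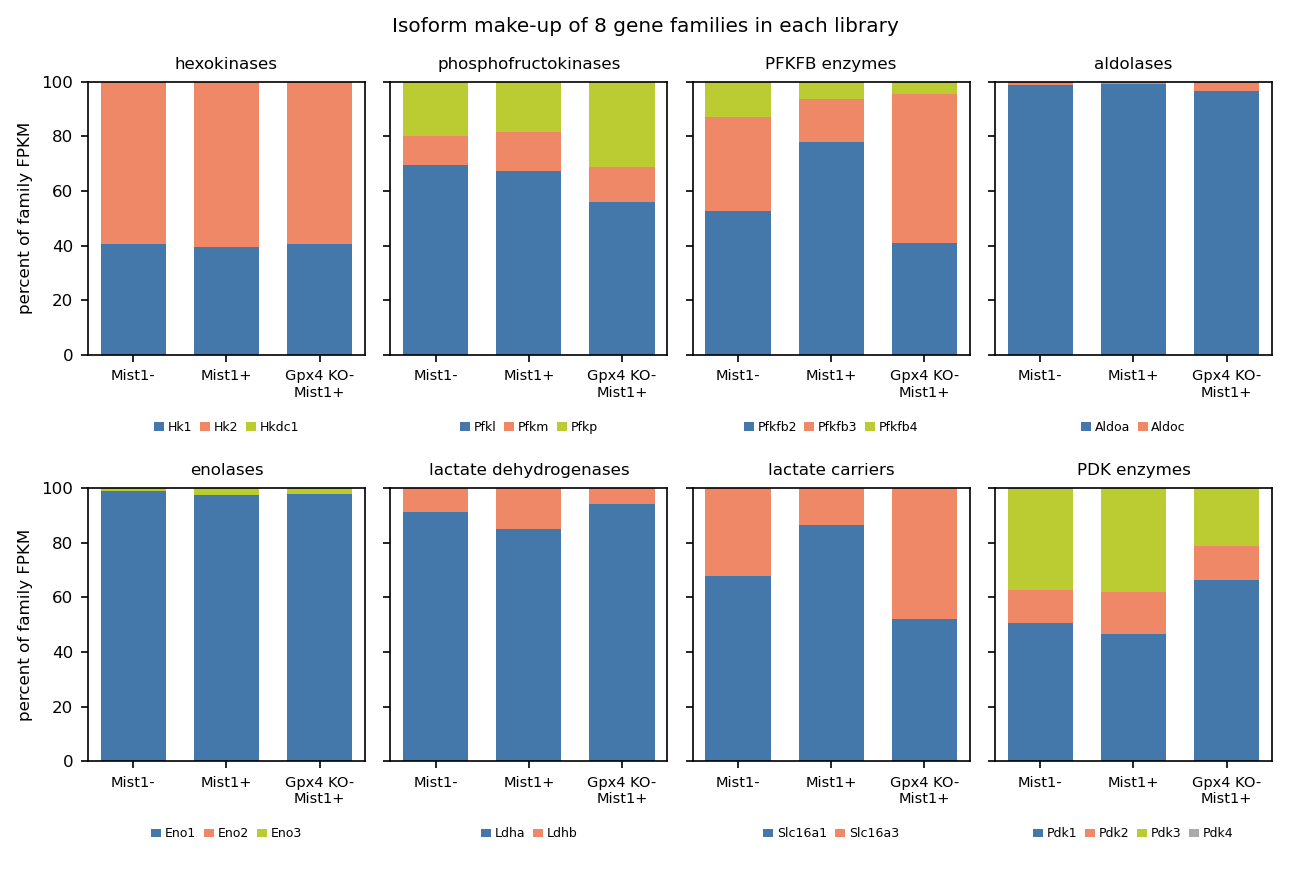
Percent of the summed FPKM of each gene family (vertical axis, from 0) contributed by each isoform in the 3 libraries, 1 panel per family. The hexokinase bars are nearly equal in the 3 libraries, while Pfkfb3, Pfkp, Slc16a3 and Pdk1 take their largest share in the Gpx4 KO-labelled library.

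The lower steps carried most of the signal, with a summed FPKM of 2086 in Mist1-, 1035 in Mist1+ and 3044 in the Gpx4 KO-labelled library. Aldolase splits the product of phosphofructokinase. Aldoa, the main form of muscle and most tissues, had 20706, 10541 and 35074 counts and an FPKM of 476, 224 and 735. It was 2.13-fold lower in Mist1+ than in Mist1- (2.08 to 2.18) and 3.29-fold higher in the Gpx4 KO-labelled library than in Mist1+ (3.21 to 3.36). Its second table entry had 10, 27 and 18 counts and played no part in these values.

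Aldoc, the brain-type aldolase, was much rarer and had the widest range of the 26 genes. It had 342, 114 and 1444 counts and an FPKM of 7.01, 2.16 and 27.0. The Gpx4 KO-labelled library was 12.5-fold above Mist1+ (10.3 to 15.3), rank 23 of 13351 genes, and Mist1+ was 3.25-fold below Mist1- (2.62 to 4.05). Its share of aldolase FPKM was 1.45%, 0.956% and 3.54%, so Aldoa dominated throughout. The Aldoa to Aldoc ratio was 3.81-fold lower in the Gpx4 KO-labelled library than in Mist1+ (3.14 to 4.65).

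Tpi1, which interconverts the triose phosphates, had an FPKM of 389 in Mist1-, 172 in Mist1+ and 332 in the Gpx4 KO-labelled library. Mist1+ was low and the 2 others lay near each other. Mist1+ was 2.27-fold below Mist1- (2.20 to 2.33), and the Gpx4 KO-labelled library was 1.93-fold above Mist1+ (1.88 to 1.99). Against Mist1- it was 1.17-fold lower by scaled counts (1.15 to 1.20), a direction that turned with the processing (log2 from -0.37 to 0.06).

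Gapdh, which makes the energy-rich phosphate that the next enzyme uses, had an FPKM of 39.8, 28.2 and 66.7, far below its neighbours in the pathway. The fold was 2.37 (2.24 to 2.50) in the Gpx4 KO-labelled library over Mist1+. Gapdh has 78 near-identical copies elsewhere in the genome (at least 200 bases at 95% identity or more), which had 1102, 537 and 1238 counts together beside 2459, 1883 and 4517 for the gene. How reads matching several places were counted was not given in the sources used here, so its level is uncertain.

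Pgk1, the first ATP-forming step, was the most abundant of all 32 genes in the Gpx4 KO-labelled library, rank 24 by FPKM among all genes. It had 15622, 7618 and 35999 counts and an FPKM of 466, 210 and 978. It was 2.22-fold lower in Mist1+ than in Mist1- (2.16 to 2.28), 4.67-fold higher in the Gpx4 KO-labelled library than in Mist1+ (4.55 to 4.78), and 2.10-fold higher than in Mist1- (2.06 to 2.14). Pgk1 lies at chrX:106187100-106203699 on GRCm38.

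Pgam1, the mutase of the next step, had an FPKM of 114, 87.4 and 181 and was 2.07-fold higher in the Gpx4 KO-labelled library than in Mist1+ (1.98 to 2.16). Bpgm, an enzyme of the shunt known from red cells, ran the other way. It had 478, 358 and 275 counts and an FPKM of 8.91, 6.16 and 4.67, and was 1.32-fold lower in the Gpx4 KO-labelled library than in Mist1+ (1.12 to 1.55) and 1.91-fold lower than in Mist1- (1.64 to 2.22).

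Eno1, the common enolase, had an FPKM of 240, 111 and 264, with Mist1+ low and the others close. It was 2.16-fold lower in Mist1+ than in Mist1- (2.11 to 2.21) and 2.38-fold higher in the Gpx4 KO-labelled library than in Mist1+ (2.32 to 2.43). It held 97.3% to 98.8% of enolase FPKM. Eno3, the muscle enolase, had 70, 78 and 156 counts, and Eno2, the neuronal one, 9, 24 and 44. The Eno1 to Eno3 ratio was 2.22-fold lower in Mist1+ than in Mist1- (1.59 to 3.11).

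Pkm, pyruvate kinase, closes the sequence. It had 25624, 15495 and 36794 counts and an FPKM of 343, 191 and 449. Mist1+ was 1.79-fold below Mist1- (1.76 to 1.83), and the Gpx4 KO-labelled library 2.34-fold above Mist1+ (2.30 to 2.39). The splice forms of Pkm were not resolved by gene counts. Of its exonic bases 15.3% overlap Gm49759, which had 245, 633 and 1938 counts.

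Lactate dehydrogenase joins glycolysis to lactate. Ldha, the muscle-type subunit, had 21890, 10649 and 20725 counts and an FPKM of 443, 199 and 382. It was 2.23-fold lower in Mist1+ than in Mist1- (2.18 to 2.28) and 1.92-fold higher in the Gpx4 KO-labelled library than in Mist1+ (1.88 to 1.97). Against Mist1- the Gpx4 KO-labelled library had a scaled count 1.16-fold lower (1.14 to 1.18), a direction that turned with the processing (log2 from -0.35 to 0.08). Ldhb, the heart-type subunit, had an FPKM of 42.8, 34.9 and 23.7, lowest in the Gpx4 KO-labelled library. It was 1.48-fold lower there than in Mist1+ (1.33 to 1.64) and had a fold of 0.553 relative to Mist1- (0.499 to 0.612). The Ldha to Ldhb ratio per length was 10.3 in Mist1-, 5.69 in Mist1+ and 16.1 in the Gpx4 KO-labelled library. The change of this ratio between the 2 Mist1+ libraries was 2.84 (2.55 to 3.16).

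Lactate leaves or enters cells through the carriers MCT1, encoded by Slc16a1, and MCT4, encoded by Slc16a3, the latter known for export from glycolytic cells. Slc16a1 had an FPKM of 26.4, 21.3 and 29.2 and was within 1.37-fold between any 2 libraries. Slc16a3 had 998, 283 and 2346 counts and an FPKM of 12.6, 3.29 and 26.9, so that Mist1+ was lowest by far. It was 3.82-fold lower in Mist1+ than in Mist1- (3.34 to 4.37), the lowest ratio of the 26 genes, 8.18-fold higher in the Gpx4 KO-labelled library than in Mist1+ (7.23 to 9.29), rank 41 of 13351 genes, and 2.14-fold higher than in Mist1- (1.99 to 2.31). The share of Slc16a3 in the pair was 32.3%, 13.4% and 47.9%. Per length, the Slc16a1 to Slc16a3 ratio was 2.10, 6.48 and 1.09, and was 5.97-fold lower in the Gpx4 KO-labelled library than in Mist1+ (5.18 to 6.89).

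PDK kinases phosphorylate pyruvate dehydrogenase. Pdk1, the form best known as inducible by low oxygen, had an FPKM of 17.7, 16.3 and 40.9 and was 2.51-fold higher in the Gpx4 KO-labelled library than in Mist1+ (2.38 to 2.64). Pdk2 had 4.15, 5.31 and 7.56. Pdk3 had 13.0, 13.3 and 13.0 and did not differ beyond counting error in any comparison. Pdk4, a form known from fasting, had 4, 3 and 2 counts. The Pdk1 to Pdk3 ratio was therefore 2.56-fold higher in the Gpx4 KO-labelled library than in Mist1+ (2.25 to 2.92), and its change between Mist1+ and Mist1- was 0.902 (0.785 to 1.04). Fbp1, which runs the phosphofructokinase step backwards in liver, had 14, 12 and 17 counts.

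Over the families, the ratio between isoforms differed beyond counting error for 10 of 15 pairs in Mist1+ against Mist1-. The 10 include Eno1 to Eno2, which rests on only 9 Eno2 counts in Mist1-. In the Gpx4 KO-labelled library it differed for 10 of 16 pairs against Mist1+ and 13 of 14 against Mist1-. The pairs of a family share genes and are not independent. No such share was computed for pairs of other genes, so whether these counts are unusual was not tested. Between the 2 Mist1+ libraries the largest shifts were in pairs with Pfkfb3, Slc16a3 and Aldoc.

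Of 58 further genes of the pathway that were listed, 41 passed the filter. In Mist1+ against Mist1-, 2 were at least 2-fold higher (4.88%, against 7.87% of all genes) and 3 lower (7.32%, against 5.73%), with a median of 0.02. In the Gpx4 KO-labelled library against Mist1+, 4 were higher (9.76%, against 4.81%) and 1 lower (2.44%, against 2.74%), with a median of 0.12. Against Mist1-, 6 were higher (14.6%, against 11.6%) and 2 lower (4.88%, against 8.56%), with a median of 0.37.

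The chaperones of the lactate carriers differed in opposite directions. Bsg encodes basigin, which takes MCT1 and MCT4 to the cell surface. It had 21319, 10927 and 58142 counts and an FPKM of 786, 372 and 1955. It was 2.11-fold lower in Mist1+ than in Mist1- and 5.25-fold higher in the Gpx4 KO-labelled library than in Mist1+ (5.15 to 5.36), the order also seen for Slc16a3. Emb encodes embigin, the alternative chaperone known to serve MCT2 and MCT1. It had 1115, 1514 and 200 counts and an FPKM of 10.8, 13.5 and 1.77, which is 7.67-fold lower in the Gpx4 KO-labelled library than in Mist1+ (6.61 to 8.93). The gene for MCT2, Slc16a7, stayed below 1 FPKM with 19, 55 and 73 counts.

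Among the other named genes, Pck2, the mitochondrial enzyme that turns oxaloacetate into phosphoenolpyruvate, had an FPKM of 6.86, 6.65 and 17.1 and was 2.57-fold higher in the Gpx4 KO-labelled library than in Mist1+ (2.37 to 2.79). Egln1, an oxygen-sensing prolyl hydroxylase that marks HIF for destruction, had 21.4, 16.9 and 43.2 and was 2.56-fold higher (2.38 to 2.76). Egln3, a related hydroxylase, had 43.8, 15.04 and 203.5, and was 13.5-fold higher (12.5 to 14.7). Pdpr, a regulatory subunit of the phosphatase that reactivates pyruvate dehydrogenase, had 0.56, 8.32 and 7.04, low in Mist1-. Arnt, the partner subunit of HIF, had 6.23, 11.8 and 13.1. Fbp2, the muscle-type enzyme of the reverse phosphofructokinase step, had 59.8, 28.6 and 17.8, in contrast to Fbp1 at under 1 in every library. Txnip, a glucose-responsive brake on glucose uptake, had 78.3, 101 and 197. Mlxip, a glucose-sensing transcription factor, had 4.57, 12.3 and 11.4 and was 2.68-fold higher in Mist1+ than in Mist1- (2.44 to 2.96). Hif1a, named after its values were seen, had 8.66, 15.6 and 17.1, and so differed little between the 2 Mist1+ libraries (fold 1.09, 1.02 to 1.17). The pyruvate dehydrogenase subunit genes Pdha1, Pdhb and Dlat stayed within 2-fold in every comparison.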

How the data were processed

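RNA was sequenced on an Illumina HiSeq from 3 organoid cultures, 1 library per group. Per the submitters' processing notes, reads were handled with cutadapt 1.9.1, HISAT2 2.2.1, HTSeq 0.6.1 and GRCm38.p5. Whether counting used strand and how reads with several matches were treated are not given in the sources used here. Per the file headers, the deposited table gives for each gene and library a whole-number count and the FPKM that the authors computed from it. Recomputed from exonic length and column total, the FPKM differed from the deposited ones by at most 2.85%, 1.33% and 1.58% for genes with at least 50 counts. The 2639 rows without a symbol stayed in the totals.

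The unit of comparison was the log2 ratio of FPKM plus 1 over the 13351 genes that reached 1 FPKM in any library, called past 2-fold. Folds are of counts scaled to library totals, with exact 95% intervals from the binomial split of both counts. Isoform ratios used pairs with at least 20 counts, except Eno1 to Eno2 in Mist1+ against Mist1-, where Eno2 had 9 counts in Mist1-. A lowess fraction of 0.3 gave the length trend. The fold and its counting interval were tested on simulated counts, and the other steps were not. Every one of the 32 genes was accounted for, with full values for the leading isoform of each family and for genes past 2-fold, and for further pathway genes up to 6 per comparison were named by size among those with an FPKM of at least 5. The members and lists were chosen with earlier results of these data known. Gene positions and near-identical copies (BLAST 2.17.0, copies over 100000 bases away) are from GENCODE M21 on GRCm38, since only 2.83% of 52073 shared identifiers had the same start and end in the table. Scripts ran on Python 3.11.15 with scipy 1.17.1, numpy 2.4.6, matplotlib 3.10.9, statsmodels 0.14.6 and pandas 2.3.3. Other pseudocounts, filters, scalings and fold limits were tried, and 2 settings (copies added, Aldoa rows summed) were chosen after seeing the data.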

Additional observations from a re-analysis of the deposited data

How the results depend on the processing

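With 1 library per group, depth limits only counting error, and no spread between cultures can be had. No paired analysis was possible because each group has 1 library. Each count of the 26 genes is followed by the share over all genes tested at the same setting. In Mist1+ against Mist1-, 1 gene (Pfkfb2) was at least 2-fold higher (7.87%), but 0 with a pseudocount of 5 (0.966%), with a 4-fold limit (0.607%) and with the length trend removed (4.37%). The count lower was 7 (5.73%), but 2 on TPM (3.82%), 11 at 1.5-fold (14.99%) and 0 at 4-fold (0.285%). In the Gpx4 KO-labelled library against Mist1+, 15 genes were higher (4.81%), but 4 at 4-fold (0.899%), namely Pfkfb3, Aldoc, Pgk1 and Slc16a3. Against Mist1-, 10 were higher (11.6%), but 15 on TPM (24.1%), 17 at 1.5-fold (25.6%), 1 (Pfkfb3) at 4-fold (1.24%), 6 with the length trend removed (7.87%), and 7 with a pseudocount of 5 (2.61%) or with median ratio scaling (9.54%). There 0 were lower (8.56%), but 2 (Bpgm and Ldhb) at 1.5-fold (20.1%). A stricter or looser limit changes counts by construction; for the other settings the cause was not tested. The remaining values of these counts stayed within their limits, and no called direction was reversed. Isoform ratios were recomputed only with rows described as pseudogenes, near-identical copies or the other Aldoa row added. They stayed within their intervals there, but most pairs have no such rows to add. The length trend was not removed from isoform ratios, so their dependence on it was not tested. Adding near-identical copies or the other Aldoa row, alternatives chosen after seeing the data, left the counts at 1 and 7, 15, and 10.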
